A study of Mus musculus with 192 samples.

Results

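Histone genes were followed in 2 kinds of single red cell progenitor from mouse fetal liver. The set holds every gene whose symbol starts with Hist1h, Hist2h, Hist3h, Hist4h, H2af or H3f3, together with H1f0, H1fx and Cenpa, with names ending in -ps left out. It counts 84 of the 49466 genes in the deposited table. Of these, 67 carry Hist symbols and are called replication-dependent here, and 17 are called variant. The annotation lists 65 and 14 of these as protein-coding. Hist1h2aj and Hist1h2al, among the 67, and H3f3c and H2afy3, among the 17, are pseudogenes, and H3f3aos is an antisense RNA, each at or below 1.24 CPM in both groups. The cells came from C57/Bl6J mouse embryos at day 14.5, from fetal liver depleted of cells carrying Ter119, CD41, CD16/32, Sca-1, CD3e, CD45R, CD11b or Ly-6G, and were sorted singly by stain for CD117, CD71 and CD24, with gates not given in the sources used here. BFU-E cells (burst-forming units-erythroid), early committed progenitors of red cells, filled 1 plate, and CFU-E cells (colony-forming units-erythroid), which descend from them, filled the other. Neither group was treated or carries a named allele. No label names an embryo or pool, so each group counts as 1 sample, differences between groups have no replicate check and no p-value, and cell type, plate and sequencing lane cannot be told apart.

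Histones are the proteins around which DNA is wound in nucleosomes, with H2A, H2B, H3 and H4 in the core and H1 on the linker. The replication-dependent genes lie in clusters, mostly lack introns, and are transcribed in S phase, and their mRNAs end in a conserved stem-loop with no poly(A) tail. Variant genes mostly lie alone and mostly make mRNAs with poly(A) tails, many of them throughout the cell cycle. Their proteins mostly replace the core histones outside replication or at special places. Erythroid progenitors divide quickly before chromatin condenses and the nucleus is lost. The libraries here were primed with oligo-dT, which anneals to poly(A), so the levels of replication-dependent genes given here do not measure their whole mRNA.

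The histone stem-loop consensus of 16 bases was searched for on the sense strand of each GENCODE M21 transcript in the GRCm38 build. It was found in 42 of the 67 replication-dependent genes, in 1 of the 17 variants and in 0.0831% of other genes. A transcript annotated without its end could not show this consensus. The commonest of its 6 forms, in 24 replication-dependent genes including Hist1h1e, the form of Hist1h4i, and the form of the variant H2afx are shown because these 3 genes carry results below, with the 4-base loop in capitals.
Hist1h1e: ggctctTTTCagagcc
Hist1h4i: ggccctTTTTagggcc
H2afx: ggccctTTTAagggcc
In Hist1h1e the annotated transcript goes on for 1153 bases after the stem-loop, in Hist1h4i for 330 bases and in H2afx for 822 bases.

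The 250 bases before the RefSeq start site (GRCm38.p6) are shown for Hist1h1e, the linker histone gene that was higher in CFU-E cells, and for Hist1h2ac, whose promoter faces that of Hist1h2bc and which was under the measured level, its counts lying mostly in granulocyte-monocyte-like cells. Capitals mark AAACACA (an element of H1 promoters), the octamer ATTTGCAT, CCAAT and TATAAA, searched on both strands.
Hist1h1e, chr13:23622559-23622808, minus strand: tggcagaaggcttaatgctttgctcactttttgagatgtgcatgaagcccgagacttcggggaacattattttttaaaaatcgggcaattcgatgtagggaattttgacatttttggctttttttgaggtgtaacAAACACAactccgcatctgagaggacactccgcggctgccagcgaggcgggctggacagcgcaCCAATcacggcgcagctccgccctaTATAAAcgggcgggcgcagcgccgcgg
Hist1h2ac, chr13:23683960-23684209, minus strand: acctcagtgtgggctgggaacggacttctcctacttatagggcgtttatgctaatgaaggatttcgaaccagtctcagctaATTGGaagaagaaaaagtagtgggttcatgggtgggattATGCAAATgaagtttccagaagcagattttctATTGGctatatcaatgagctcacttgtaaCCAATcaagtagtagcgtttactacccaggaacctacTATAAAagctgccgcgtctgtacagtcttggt
AAACACA stood in 5 of 6 H1 promoters against 7.20% of all genes with a promoter entry, and the octamer in 7 of 18 H2A and 6 of 14 H2B promoters against 1.81% of genes. No H1, H3 or H4 promoter held the octamer in this window. CCAAT was in all 6 H1, 18 H2A and 14 H2B promoters, in 8 of 10 H3 and in 3 of 12 H4 promoters, against 37.5% of genes, and TATAAA in 29 of the 60 replication-dependent promoters against 14.3%. A match is a description of these letters and not a bound site. There were 12 pairs of H2A and H2B genes facing away from each other with start sites up to 305 bases apart, among them Hist1h2ac and Hist1h2bc with 250 bases between them.

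Wells under 100000 counts or 2000 genes were dropped, which kept 92 cells of the BFU-E plate (median 1120768.5 counts) and 89 of the CFU-E plate (median 1005516 counts). Every kept cell was thinned to 100000 counts, so 1 count in a cell equals 10 CPM (counts per 1000000), and group levels are the CPM of the summed cells. The 95% intervals in brackets are exact and cover counting error only, since PCR reads that carry no molecular identifiers do not count molecules. The 2 plates shared 95 index pairs. The labels were checked against erythroid progenitor markers, which had a median of 10 of 11 with a count in the 85 CFU-E cells described next, 9 in 53 BFU-E cells, and 4 in the other 39. That cluster of 39 BFU-E cells stood apart as granulocyte-monocyte-like, with a median of 9 of 19 such markers against 3 in the other 53, and Mpo, Csf1r and Plac8 at 4123, 469 and 348 CPM against 52.8, 2.08 and 7.36. The cluster also carried lymphoid markers, with a median of 3 and a summed 976 CPM against 16.4 CPM in the other 53. In CFU-E cells 4 carried at least 3 lymphoid markers, with a median of 12.5. Members, and counts of called list genes, are therefore also given for the 53 other BFU-E and 85 other CFU-E cells. Beside every difference given for all cells, the summed granulocyte-monocyte markers stood at 2801 CPM in the BFU-E group against 4.04 CPM in the CFU-E group, and at 160.8 and 0.706 CPM in these 53 and 85, with 3 of the 19 markers at 0 in all BFU-E and 13 in all CFU-E cells. Other marker sums also differed between the 53 and 85 cells, at 603 and 30.6 CPM for megakaryocyte, 255.7 and 18.7 CPM for mast cell and basophil, and 112 and 5.88 CPM for endothelial and stromal markers. The part of these markers in the differences below was not tested.

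Variant transcripts made up nearly all histone counts in both groups, and replication-dependent transcripts were a small remainder that was lower in CFU-E cells at library-size scaling. The 67 replication-dependent genes summed to 145 CPM (137 to 153) in the BFU-E group against 103 CPM (96.9 to 110) in the CFU-E group, 1.40-fold lower (1.29 to 1.52). They were 5.20% (4.93 to 5.48) of histone counts in BFU-E and 3.43% (3.21 to 3.65) in CFU-E cells. The 17 variant genes summed to 2640.1 CPM (2607 to 2674) and 2914 CPM (2879 to 2950), 1.10-fold higher in CFU-E cells (1.08 to 1.12). In the 53 and 85 cells the replication-dependent sum was 117 against 104 CPM, 1.13-fold lower (1.02 to 1.25), and the variant sum 2485 against 2903 CPM, 1.17-fold higher (1.14 to 1.19). The direction of the replication-dependent sum turned with the scaling. The median log2 fold of all 9445 measured genes was −0.57, and factors from the trimmed mean of M values (TMM) or from median ratios moved it to 0.01 and 0.06. The same sum was then 1.06-fold and 1.11-fold higher in CFU-E cells, and the variant sum 1.64-fold and 1.71-fold higher. Leaving out the single BFU-E cell with the highest replication-dependent sum made that sum 1.27-fold lower.

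Per cell, the replication-dependent sum ranged from 0 over a median of 105 to 1330 CPM in BFU-E cells and from 0 over 90 to 280 CPM in CFU-E cells, and 4 BFU-E and 1 CFU-E cell had no such count. The variant sum ranged from 840 over 2555 to 6960 CPM and from 1410 over 2680 to 7050 CPM. The variant sums overlapped over most of their ranges. The replication-dependent sums overlapped from 0 to 280 CPM, above which only BFU-E cells lay, and the highest replication-dependent value was in a granulocyte-monocyte-like BFU-E cell.

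**Figure D1:**
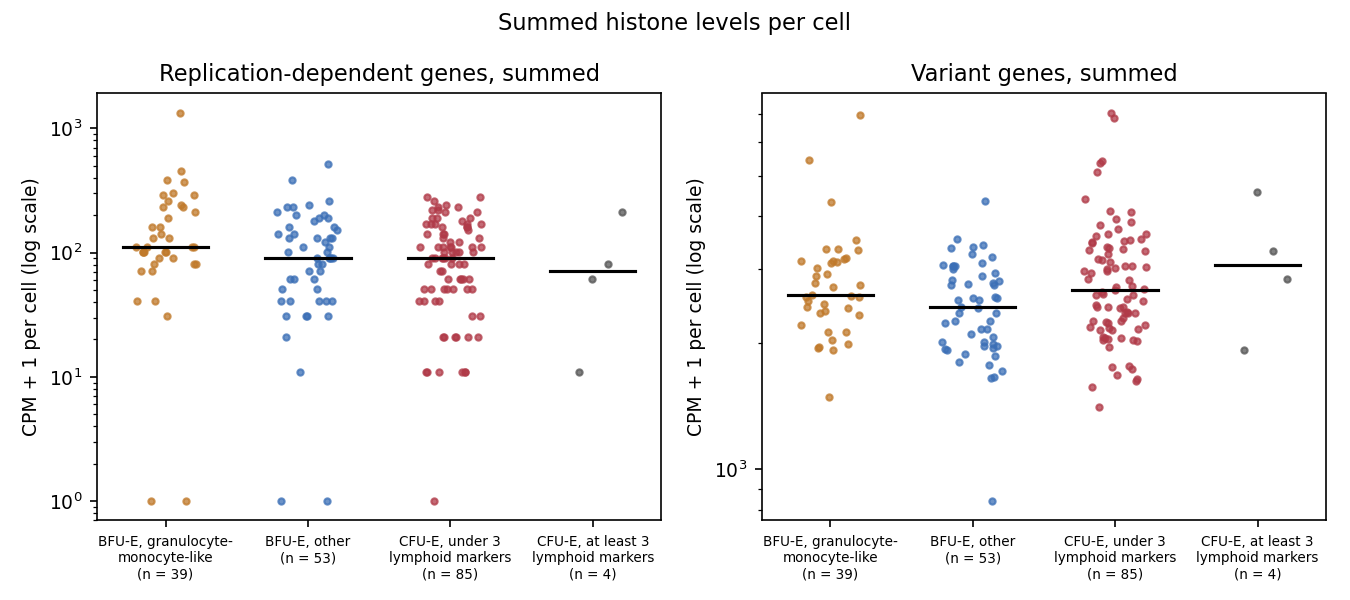
Summed replication-dependent (left) and variant (right) histone level of each thinned cell, as CPM + 1 on log axes, for BFU-E cells inside (39) and outside (53) the granulocyte-monocyte-like cluster and for the 85 CFU-E cells with under 3 and the 4 with at least 3 lymphoid markers. Points are cells and bars medians, and the 4 classes overlap in both panels, with 1 BFU-E cell at 1330 CPM in the left panel.

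A gene was called measured when the mean CPM of the groups was at least 5, which held for 7 replication-dependent and 9 variant genes. Of the 7, 1 exceeded the 2-fold threshold upwards in CFU-E cells (Hist1h1e), where the background of all measured genes is 6.28%, and 3 exceeded it downwards (Hist1h2bc, Hist1h2be and Hist3h2a), where it is 34%. Of the 9 variants, 0 were higher and 2 lower (H2afx and H2afy) by that fold. The median log2 fold was −0.26 over the 7 and −0.24 over the 9. In the 53 and 85 cells, where the backgrounds were 6.02% and 32.3%, the counts were again 1 higher and 3 lower of 7, with Hist1h1b in place of Hist3h2a among the lower, and 0 higher and 2 lower of 9, with medians of −0.28 and −0.29 against −0.55 over all genes. With TMM factors 15.4% of all measured genes were higher and 18.9% lower, and 1 replication-dependent gene was higher and 1 lower. Of the other lower genes, Hist1h2be fell under 2-fold there. Hist3h2a fell under the measured level, though it stayed over 2-fold lower in all 8 other settings. Nothing is read from shares of so few members, and the genes are described singly.

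**Figure D2:**
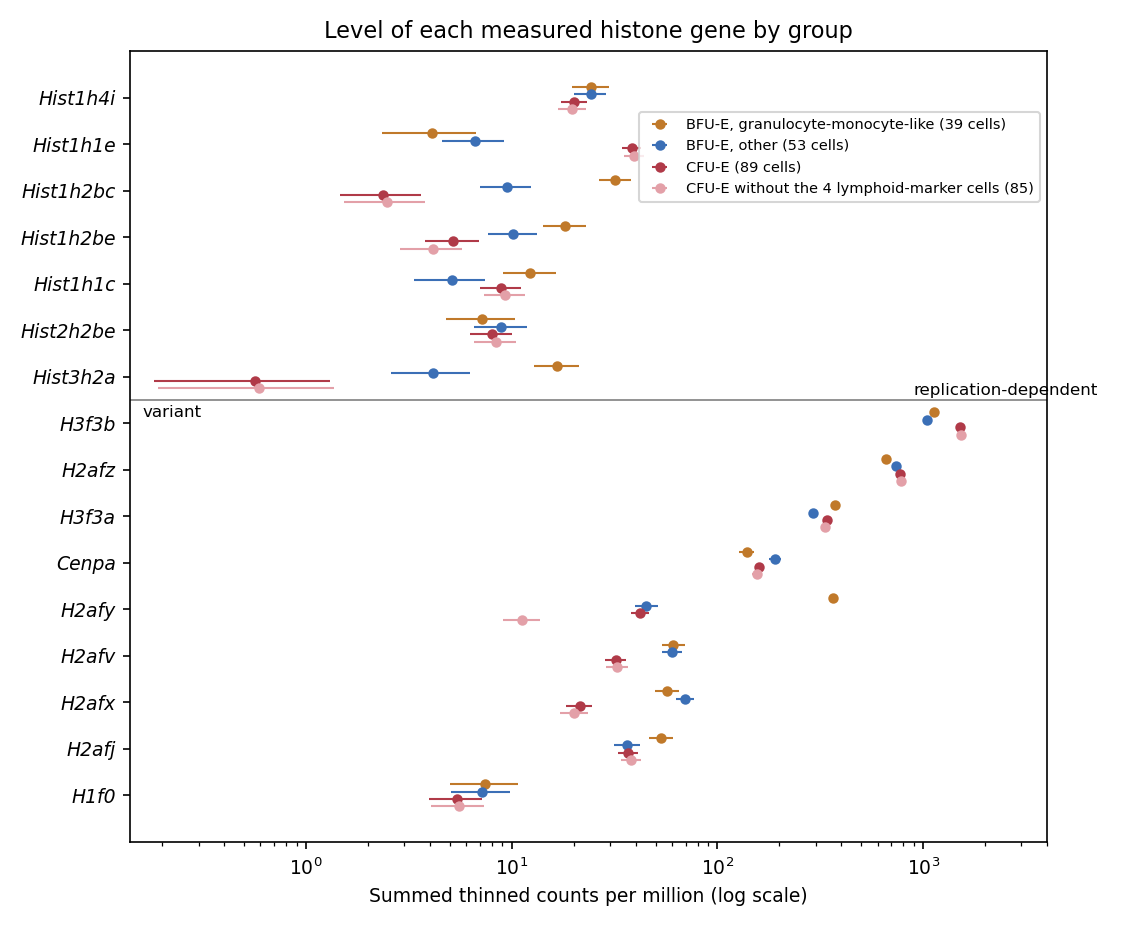
Level of the 16 measured histone genes as CPM of summed thinned counts on a log axis, with exact 95% Poisson intervals, in BFU-E cells of the granulocyte-monocyte-like cluster and outside it, in all CFU-E cells and in CFU-E cells without the 4 lymphoid-marker cells. Hist1h1e lies right in CFU-E cells, Hist1h2bc, Hist3h2a and H2afx lie left, and H2afy spreads from 11.2 to 366 CPM between the classes.

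Linker histone H1 was the replication-dependent class that was higher in CFU-E cells. Its 6 genes summed to 22.4 CPM (19.4 to 25.7) in the BFU-E group against 50.8 CPM (46.2 to 55.7) in the CFU-E group, 2.27-fold higher (1.92 to 2.69), and to 23.6 against 52.1 CPM in the 53 and 85 cells. This came mostly from 1 gene. Hist1h1e (ENSMUSG00000051627), which encodes a linker histone common in dividing cells, stood at 5.54 CPM (4.13 to 7.29) and 38.3 CPM (34.4 to 42.6), 6.91-fold higher in CFU-E cells (5.14 to 9.47). Its level per cell ranged from 0 over a median of 0 to 30 CPM in BFU-E cells and from 0 over 30 to 150 CPM in CFU-E cells. Low values were common to both groups, while no BFU-E cell passed 30 CPM. A count was seen in 32.6% of thinned BFU-E and 74.2% of thinned CFU-E cells, and in 66.3% and 91.01% before thinning. Hist1h1e was at 4.10 CPM in granulocyte-monocyte-like and 6.60 CPM in other BFU-E cells and at 39.3 CPM in the 85 CFU-E cells, 5.95-fold higher (4.19 to 8.69) than in the 53. Over the 8 other settings its fold lay between 3.63, with cells thinned to 50000 counts, and 10.7, with median-of-ratios factors.

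Hist1h1e lies on chromosome 13 from 23620629 to 23622558 in GRCm38, and its single annotated exon of 1930 bases shares 496 bases with exons of Hist1h2be on the same strand. How the authors assigned reads in shared exons is not given in the sources used here, so the counts of both genes are uncertain there. Hist1h2be, which encodes an H2B, differed the other way, at 13.6 CPM (11.3 to 16.2) in the BFU-E group against 5.17 CPM (3.78 to 6.89) in the CFU-E group, 2.63-fold lower (1.86 to 3.77), and 2.47-fold lower in the 53 and 85 cells. That fold was 1.77 with TMM factors and 1.98 with another random draw in the thinning. The other measured H1 gene, Hist1h1c, stood at 8.15 CPM (6.41 to 10.2) and 8.88 CPM (7.03 to 11.1), and its interval of the fold, 0.784 to 1.51, included 1. In the 53 and 85 cells it stood at 5.09 and 9.29 CPM, 1.82-fold higher (1.17 to 2.94). Hist1h1b, just under the measured level, stood at 7.17 CPM and 2.81 CPM, 2.55-fold lower (1.59 to 4.22), with 36.4% of its BFU-E counts from 1 cell. So over all kept cells 1 H1 gene was higher in CFU-E cells while another H1 gene was lower. Between the 53 and 85 cells Hist1h1c was higher as well.

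**Figure D3:**
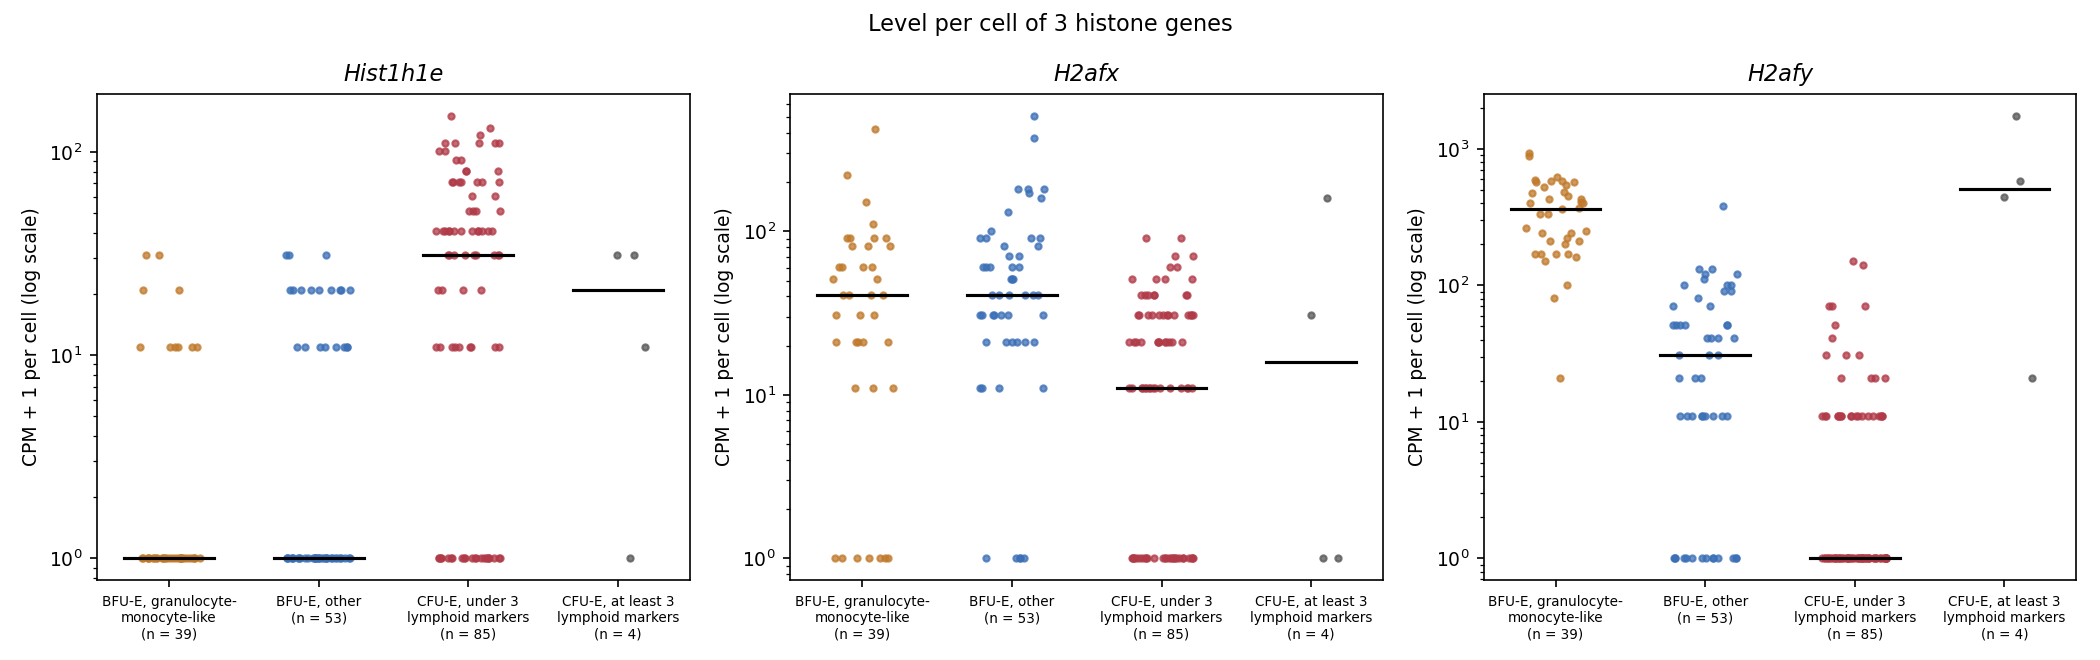
Level of Hist1h1e, H2afx and H2afy in each thinned cell, as CPM + 1 on log axes, by class of cell; points are cells and bars medians. Hist1h1e passes 30 CPM only in CFU-E cells, H2afx has a median of 40 CPM in the BFU-E group against 10 CPM in the CFU-E group, and H2afy is high in the granulocyte-monocyte-like BFU-E and in 3 of the 4 lymphoid-marker CFU-E cells.

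The core classes H2A, H2B and H3 were lower in CFU-E cells as sums, though only 1 H2A, 3 H2B and 0 H3 genes were measured. Of the BFU-E sums below, Hist3h2a supplied 9.46 CPM for H2A. For H2B, Hist1h2bc and Hist1h2be supplied 18.9 and 13.6 CPM. The 20 H2A genes summed to 25.3 CPM (22.2 to 28.8) in the BFU-E group against 7.64 CPM (5.93 to 9.69) in the CFU-E group, 3.31-fold lower (2.52 to 4.41). The 16 H2B genes summed to 50.4 CPM (45.9 to 55.2) and 17.5 CPM (14.9 to 20.5), 2.88-fold lower (2.39 to 3.47). The 12 H3 genes summed to 11.96 CPM (9.83 to 14.4) and 4.04 CPM (2.83 to 5.60), 2.96-fold lower (2.01 to 4.44). In the 53 and 85 cells these folds were smaller, at 2.37 for H2A, 2.13 for H2B and 2.06 for H3. The 13 H4 genes summed to 34.7 CPM (30.97 to 38.7) and 23.5 CPM (20.4 to 26.9), 1.48-fold lower (1.24 to 1.77), and 1.33-fold lower in the 53 and 85 cells, but 1.01-fold and 1.05-fold higher with TMM and median-of-ratios factors. H2A, H2B and H3 kept their direction with TMM factors, at 2.23, 1.94 and 1.99-fold lower. All replication-dependent genes without Hist1h1e summed to 139 CPM and 65.2 CPM, 2.14-fold lower (1.94 to 2.36), and 1.71-fold lower in the 53 and 85 cells.

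Hist1h2bc (ENSMUSG00000018102), an H2B gene on chromosome 13 from 23684199 to 23692908, was at 18.9 CPM (16.2 to 21.9) in the BFU-E group against 2.36 CPM (1.46 to 3.61) in the CFU-E group, 8.02-fold lower (5.08 to 13.3). It ranged from 0 over a median of 0 to 460 CPM in BFU-E and from 0 over 0 to 40 CPM in CFU-E cells, so the groups overlapped at low values and only BFU-E cells exceeded 40 CPM. It was at 31.8 CPM in granulocyte-monocyte-like and 9.43 CPM in other BFU-E cells, and the fold between the 53 and 85 cells was 3.82 (2.25 to 6.69). With at least 500000 counts and 4000 genes per cell it was 15.1-fold lower. Hist1h2ac, the H2A gene on the other side of the shared promoter, was under the measured level, with 30 counts in the BFU-E group against 2 in the CFU-E group, a ratio of 14.5 (3.68 to 125). Almost all of these counts were in granulocyte-monocyte-like cells, at 6.92 CPM against 0.566 CPM in the other BFU-E cells, and the 53 and 85 cells held 3 and 2 counts, at or under the floor of 3. In the pair Hist2h2ac and Hist2h2be, the H2B gene Hist2h2be stood at 8.15 CPM (6.41 to 10.2) and 7.98 CPM (6.23 to 10.1), with an interval of the fold of 0.697 to 1.37, and Hist2h2ac had 8 and 6 counts.

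Hist3h2a (ENSMUSG00000078851), an H2A gene on chromosome 11 from 58954685 to 58956830, was also lower in CFU-E cells, by a fold that varied with the settings. It was at 9.46 CPM (7.57 to 11.7) in the BFU-E group against 0.562 CPM (0.182 to 1.31) in the CFU-E group, 16.8-fold lower (6.94 to 53.1), on 87 and 5 counts. Its level was 16.7 CPM in granulocyte-monocyte-like and 4.15 CPM in other BFU-E cells, which leaves a fold of 7.06 (2.61 to 23.9) between the 53 and 85 cells, where it was under the measured level. Over the 8 other settings its fold was between 5.79, with at least 500000 counts and 4000 genes per cell, and 16.6, and it was 7.74 with another random draw in the thinning. The gene shares 708 of its 2146 exonic bases with Trim17 on the same strand, so its counts are uncertain there. Hist1h4i (ENSMUSG00000060639), an H4 gene on chromosome 13 from 22040636 to 22041362, was the highest replication-dependent gene per length in both groups, at 33.3 and 27.7 CPM per kb of exons. Its summed level was 24.2 CPM (21.2 to 27.6) and 20.1 CPM (17.3 to 23.3), and its interval of the fold, 0.678 to 1.01, included 1. The sign of its difference turned with TMM factors, as did that of Hist2h2be, Cenpa and H1f0 among the genes with such intervals. Per cell it ranged from 0 over 15 to 150 CPM and from 0 over 20 to 120 CPM, with a count in 57.6% and 75.3% of thinned cells and in 69.6% and 95.5% before thinning.

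The other 60 replication-dependent genes were at or below 7.17 CPM in the BFU-E group against 2.81 CPM in the CFU-E group and summed to 56.7 and 20.1 CPM. Of these, 36 had a lower and 11 a higher CPM in CFU-E cells, and 13 had no thinned count in either group. Genes of all kinds leaned the same way at library-size scaling, with a median log2 fold of −0.38 when no minimum level was set. Of all genes, 47.9% were then called lower and 15.1% called higher. The split of these members is therefore not read as particular to histone genes. Before thinning, 9 had no count in any kept cell, and in 6 of these 9 under 50% of the 50-base stretches of the transcript were unique among all transcripts, so reads of near-identical copies may have been split or dropped. Only 31 of the 67 genes had at least 50% unique stretches, and single low genes are therefore not ranked.

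Replication-dependent genes were grouped by how far their annotated transcript reaches beyond the stem-loop. In 21 genes it reached at least 100 bases further, in 21 under 100 bases, and in 25 the stem-loop had no match. A stem-loop beyond the annotated end cannot be matched. Many of the 25 have short annotations, such as Hist1h4k at 312 and Hist1h2bl at 381 bases. No match therefore does not show that a gene lacks the stem-loop. All 5 measured genes that carry the stem-loop were in the first of these groups (Hist1h1c, Hist1h1e, Hist1h2be, Hist1h4i and Hist3h2a), 2 measured genes had no match (Hist1h2bc and Hist2h2be), and none had a short end. The median level in BFU-E cells was 2.73 CPM per kb with a long end, 0.278 with a short end and 0.820 with no match, and in CFU-E cells 0.262, 0.236 and 0.286 CPM per kb. The CFU-E medians correspond to levels of 0.337, 0.112 and 0.112 CPM, at or under the floor of 3 counts, so they cannot be ordered, and the same holds for the BFU-E medians of short-ended and unmatched genes, at 0.109 and 0.326 CPM. Above 1 CPM were 13 long-ended, 3 short-ended and 6 unmatched genes in BFU-E cells, and 7, 2 and 3 in CFU-E cells. The groups also differed in median exonic length, at 1249, 482 and 405 bases, and in the median share of unique 50-base stretches, at 75.5%, 34.2% and 17.2%, and the part of these in the levels was not tested. Summed, the long-ended genes stood at 88.2 CPM (82.2 to 94.4) and 80.4 CPM (74.7 to 86.6), with an interval of the fold of 0.824 to 1.01, and at 67.9 and 80.6 CPM in the 53 and 85 cells, 1.19-fold higher (1.04 to 1.35). With TMM factors they were 1.36-fold higher in all CFU-E cells. The short-ended genes stood at 11.3 and 6.74 CPM, 1.68-fold lower in CFU-E cells (1.21 to 2.34), and those with no match at 45.3 and 16.3 CPM, 2.78-fold lower (2.30 to 3.38). In the 53 and 85 cells they were 1.72-fold (1.18 to 2.51) and 2.25-fold lower (1.81 to 2.81). These folds are at library-size scaling, where the median log2 fold of all measured genes was −0.57 over all kept cells. TMM factors would make them smaller.

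**Figure D4:**
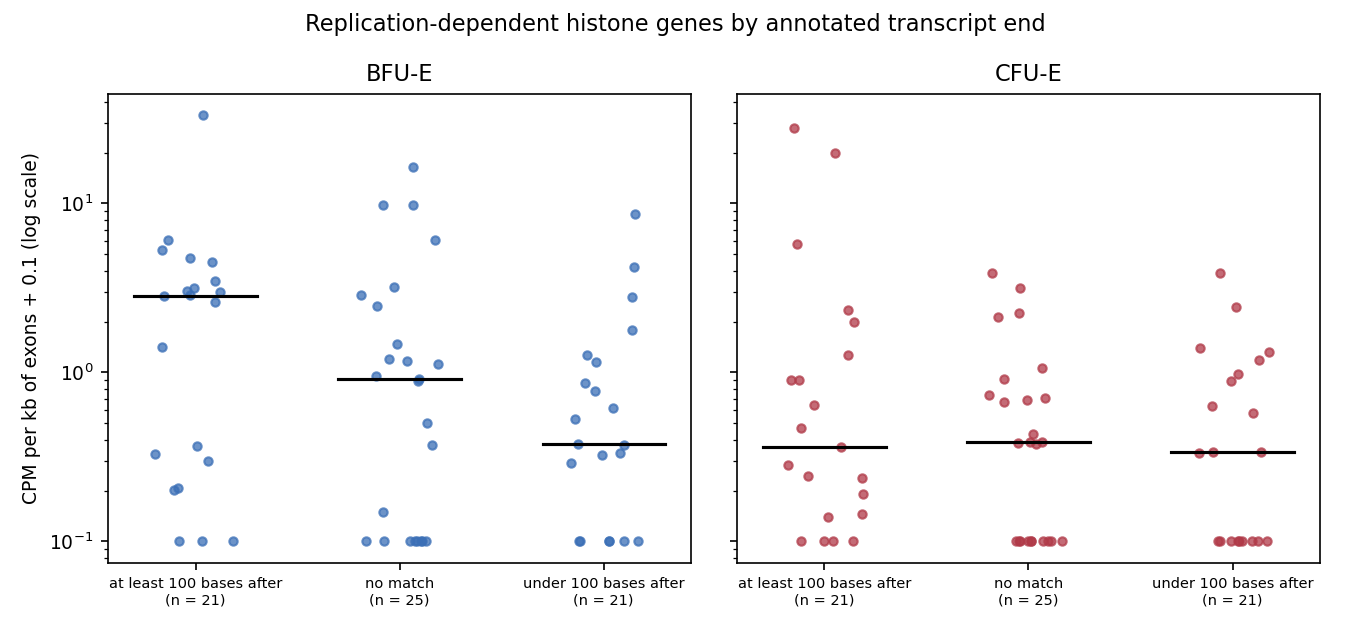
Level of each of the 67 replication-dependent genes as CPM per kb of exons + 0.1 on a log axis, in BFU-E (left) and CFU-E cells (right), by the number of annotated bases after the stem-loop; points are genes and bars medians. The 21 genes with at least 100 bases after have a median of 2.73 CPM per kb in BFU-E cells, and all 3 CFU-E medians lie at or under a floor of 3 counts.

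Among the variants, H3.3 and H2A.Z carried most histone counts. H3f3b and H3f3a encode the same H3.3 protein, which replaces H3 in transcribed chromatin. H3f3b (ENSMUSG00000016559) ranged from 240 over a median of 975 to 3270 CPM per BFU-E cell and from 390 over 1270 to 5300 CPM per CFU-E cell, and the groups overlapped widely. Its summed level was 1079 CPM (1058 to 1100) and 1505 CPM (1480 to 1531), 1.39-fold higher in CFU-E cells (1.36 to 1.43), 1.46-fold in the 53 and 85 cells, and 2.07-fold and 2.16-fold with TMM and median-of-ratios factors. H3f3a stood at 327 CPM (316 to 339) and 339 CPM (327 to 352), with an interval of the fold of 0.986 to 1.09. Both genes together were 50.5% of histone counts in BFU-E and 61.1% in CFU-E cells. H2afz and H2afv encode the 2 forms of H2A.Z, which marks promoters. H2afz was at 704 CPM (687 to 721) and 771 CPM (753 to 789), 1.10-fold higher in CFU-E cells (1.06 to 1.13), and was the highest member per length in BFU-E cells, at 396 CPM per kb. H2afv differed the other way, at 60.7 CPM (55.7 to 65.9) and 32.0 CPM (28.4 to 35.96), 1.89-fold lower (1.64 to 2.19). It had 61.03 CPM in granulocyte-monocyte-like and 60.4 CPM in other BFU-E cells, so this difference was alike in both, and the fold between the 53 and 85 cells was 1.86. H2afz was higher and H2afv lower in CFU-E cells in all 8 other settings of filter, thinning and scaling. H2afz lay between 1.02-fold and 1.70-fold higher, and H2afv between 1.22-fold and 1.985-fold lower.

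H2afx (ENSMUSG00000049932), on chromosome 9 from 44334694 to 44336077, encodes H2A.X, the variant phosphorylated at DNA breaks, and is the variant gene with a stem-loop match. It ranged from 0 over a median of 40 to 510 CPM in BFU-E cells and from 0 over 10 to 160 CPM in CFU-E cells, with overlap at low and middle values. Its summed level was 64.3 CPM (59.3 to 69.7) and 21.3 CPM (18.4 to 24.6), 3.01-fold lower in CFU-E cells (2.56 to 3.57). In granulocyte-monocyte-like cells it was 56.9 CPM, in other BFU-E cells 69.8 CPM and in the 85 CFU-E cells 20.1 CPM, so the fold was larger, at 3.47 (2.89 to 4.18), without the cells that stood apart. With median-of-ratios factors it was 1.95.

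H2afy (ENSMUSG00000015937), on chromosome 13 from 56073619 to 56136361, encodes macroH2A1, a large variant linked to silent chromatin, and differed between classes of cell within each plate. It ranged from 0 over a median of 95 to 930 CPM in BFU-E cells and from 0 over 0 to 1750 CPM in CFU-E cells, summing to 181 CPM (173 to 190) and 42.0 CPM (37.9 to 46.5), 4.31-fold lower (3.85 to 4.83). Within BFU-E, the granulocyte-monocyte-like cells were at 366 CPM and the others at 45.1 CPM, so the others had 0.123 of the level (0.107 to 0.141). The clusters were made from the 1000 most variable genes of these same cells, among which H2afy may be, so this is a description. Within CFU-E, the 4 lymphoid-marker cells were at 698 CPM and the other 85 at 11.2 CPM, and 1 of the 4 held 46.8% of all CFU-E counts. In the 53 and 85 cells the gene was 4.03-fold lower in CFU-E cells (3.17 to 5.17). Leaving out the lymphoid-marker cells alone gave 16.2-fold lower, leaving out the granulocyte-monocyte-like cells alone gave 1.07-fold lower, and all counts without thinning gave 10.5-fold lower. H2afy2, which encodes macroH2A2, had 26 BFU-E counts (2.83 CPM) and no CFU-E count, at least 8.38-fold lower when 3 counts summed over all cells are taken as the floor. Most of these counts were in granulocyte-monocyte-like cells. The other 53 BFU-E cells held no more than that floor, so no fold is given against the 85 CFU-E cells.

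Cenpa (ENSMUSG00000029177), which encodes the centromeric H3, was at 169 CPM (160.4 to 177) in the BFU-E group against 160.0 CPM (152 to 169) in the CFU-E group, with an interval of the fold of 0.882 to 1.02. In the 53 and 85 cells it was 191 and 156 CPM, 1.22-fold lower (1.13 to 1.33), while with TMM factors it was 1.41-fold higher in all CFU-E cells. Its level per cell ran from 0 over 120 to 790 CPM and from 0 over 150 to 440 CPM, a wider range in BFU-E cells. H2afj, an H2A variant of mammals, stood at 43.6 CPM (39.4 to 48.1) and 36.7 CPM (32.9 to 40.9), 1.19-fold lower (1.02 to 1.38) but 1.25-fold higher with TMM factors, and at 36.4 and 37.9 CPM in the 53 and 85 cells. H1f0, the linker histone of cells that stop dividing, stood at 7.28 CPM (5.64 to 9.25) and 5.39 CPM (3.98 to 7.15), with an interval of the fold of 0.500 to 1.09. The 8 variant genes under the measured level reached 2.83 CPM in the BFU-E group against 1.24 CPM in the CFU-E group, and 3 of them had no count before thinning.

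Cells were also set against the level of cell cycle genes, as the mean log2(CPM + 1) of 34 genes of G2 and M phase and of 39 genes of S phase. The G2 and M level ranged from 0.77 over a median of 5.91 to 8.52 in BFU-E cells and from 4.68 over 6.77 to 8.45 in CFU-E cells, so BFU-E cells reached much lower values. The following correlations are descriptions over cells that share a plate, a lane and a depth. Cenpa went with the G2 and M level in BFU-E cells (Spearman rho 0.53, n = 92) and less so in CFU-E cells (rho 0.31, n = 89), and against the S phase level (rho −0.42 and −0.30). H2afx went with the G2 and M level in BFU-E cells (rho 0.61) and hardly in CFU-E cells (rho 0.17). Among the 53 other BFU-E cells, the 26 with the highest G2 and M level had a mean H2afx of 110 CPM and the 26 with the lowest had 31.5 CPM, while their mean Cenpa was 267 and 122 CPM. Among the 85 CFU-E cells, the 42 highest and 42 lowest had mean H2afx at 23.6 and 16.9 CPM and mean Cenpa at 178 and 131 CPM. Mean H2afx of the highest CFU-E cells thus lay under that of the lowest BFU-E cells at library-size scaling. TMM factors, at 1.22 for the BFU-E and 0.82 for the CFU-E group, would raise the CFU-E means against the BFU-E means. These means were not rescaled, so their order is not taken as firm.

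**Figure D5:**
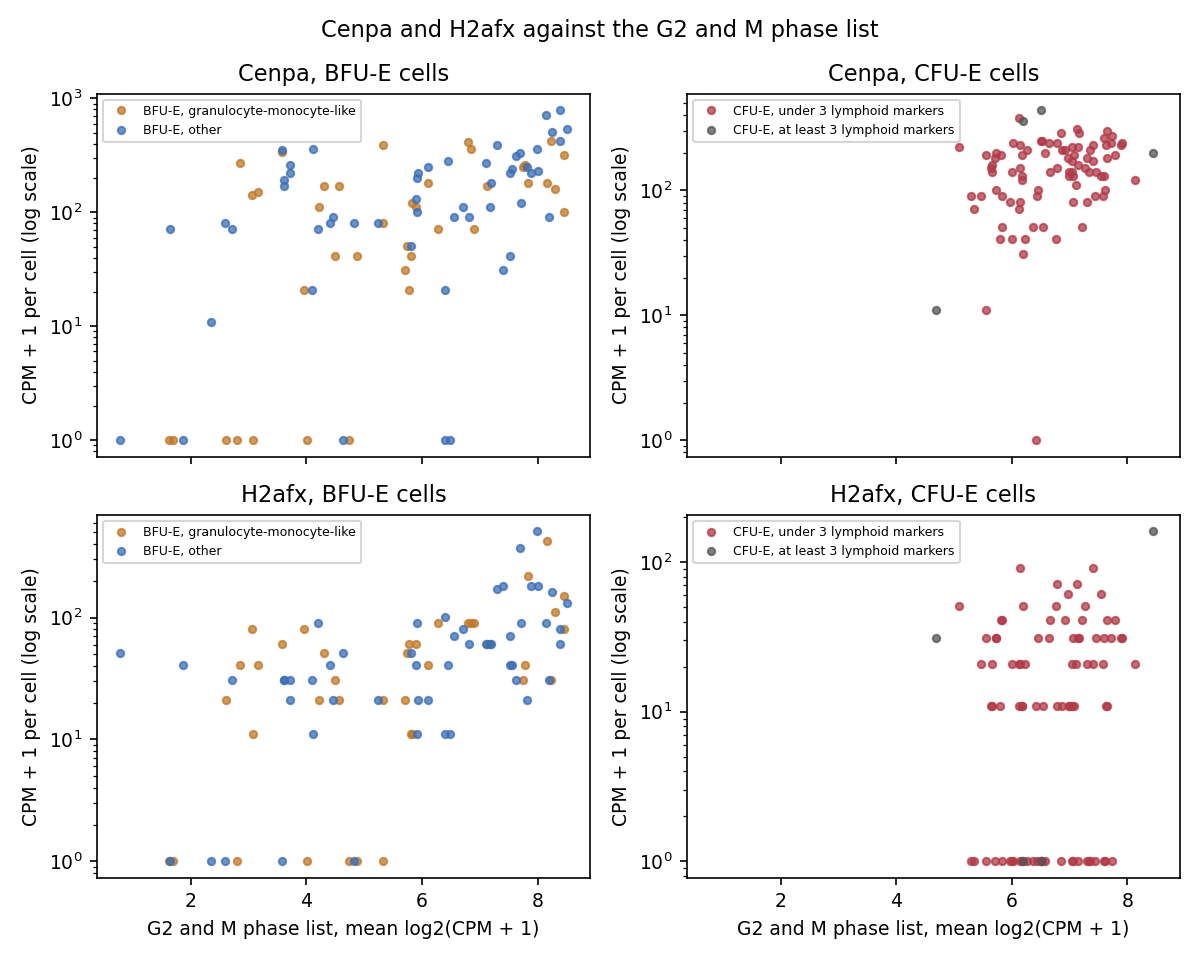
Level of Cenpa (top) and H2afx (bottom) in each thinned cell, as CPM + 1 on log axes, against the mean log2(CPM + 1) of 34 G2 and M phase genes, in BFU-E (left) and CFU-E cells (right). Points are cells coloured by class; both genes climb with the list in BFU-E cells (rho 0.53 and 0.61), and CFU-E cells fill only the range from 4.68 upwards.

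The replication-dependent sum showed only weak relations with these lists, with rho of −0.17 in the BFU-E group against 0.28 in the CFU-E group for S phase and 0.11 and −0.15 for G2 and M phase. The sign differed between classes of BFU-E cell, with rho for S phase of −0.41 in the 39 granulocyte-monocyte-like and 0.09 in the 53 other cells. Hist1h1e had rho of 0.30 with the G2 and M level in BFU-E and −0.04 in CFU-E cells. Outside the histone genes, those with the highest rho with the replication-dependent sum were Rpl35a (0.38), Taf6l (0.37), Hnrnpu (0.34), Grk2 (0.34) and Atp6v1g1 (0.32) in BFU-E cells, over 5513 genes. In CFU-E cells, over 5110 genes, they were Fbxo5 (0.39), an inhibitor of the anaphase-promoting complex, Tk1 (0.39), which supplies thymidine nucleotides, Ndufa9 (0.35), Mrpl13 (0.35) and Uhrf1 (0.35), which maintains DNA methylation at replication forks. In both groups these are the highest of that many values, so they are raised by selection. Whether they exceed what such a search gives by chance was not tested. The genes with the highest rho with Cenpa over BFU-E cells were Ccnb1 (0.64), Ube2c (0.62), Hmgb2 (0.60), Cdc20 (0.59) and Cdca8 (0.52). Of these, Ccnb1, Ube2c and Cdc20 are in the G2 and M list. Over CFU-E cells they were Tbc1d9b (0.46), B4galt1 (0.39), Ube2c (0.39), Reep4 (0.38) and Cops7a (0.38), of which only Ube2c is in that list. Those with H2afz over CFU-E cells were ribosomal protein genes, Rplp0 (0.64), Rps6 (0.62), Rpl3 (0.59), Rpl6 (0.59) and Rps9 (0.58). Over BFU-E cells they were Ppia (0.60), Rpl14 (0.52), Ran (0.52), Banf1 (0.52) and Oaz1 (0.50), of which only Rpl14 is a ribosomal protein gene. Over the 53 other BFU-E cells they were Mrpl42 (0.50), Cisd1 (0.49), Pdk3 (0.47), Ddx10 (0.47) and Selenoh (0.47).

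Genes that make, end or read histone mRNA were mixed. The counts for this and the next lists stand against 6.28% of all measured genes higher and 34% lower. Of 29 measured genes of histone mRNA processing and transcription, 3 passed 2-fold upwards in CFU-E cells (Ccne1, Ccne2 and Slbp) and 6 downwards, and the median log2 fold was −0.35. Between the 53 and 85 cells, with 6.02% and 32.3% over all genes, they were 3 and 5 of 29, without Cpsf3 among the lower. Slbp, which binds the stem-loop, was at 373 CPM in the BFU-E group against 797 CPM in the CFU-E group, 2.14-fold higher (2.05 to 2.23). Ccne1, the cyclin that drives histone transcription at S phase entry, was 12.9-fold higher (11.7 to 14.3), at 572 against 44.2 CPM. Nfya, a subunit of the factor that binds CCAAT, was 6.29-fold lower (4.60 to 8.78), with 5.17 CPM after 32.5 CPM. Prkdc, a kinase of DNA break repair, was 2.88-fold lower (2.57 to 3.25). Npat, the coactivator at histone gene clusters, stood at 74.3 and 91.1 CPM.

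The 38 measured histone chaperones and importers held 0 genes past 2-fold upwards and 1 downwards (median −0.28), both shares under those of all genes. That gene was Anp32a, at 43.8 and 11.01 CPM, 3.98-fold lower (3.18 to 5.01). Without the cells that stood apart 0 were higher and 3 of 39 lower (Anp32a, Npm3 and Supt6). Atrx, which places H3.3 in heterochromatin, was at 412 and 222 CPM, 1.86-fold lower (1.76 to 1.96), and Npm1, an abundant nucleolar chaperone, at 4049 and 7412 CPM, 1.83-fold higher (1.81 to 1.85). Hjurp, the chaperone of CENP-A named here beside Cenpa, was at 310 and 205 CPM, 1.51-fold lower (1.43 to 1.60), and 1.02-fold higher with median-of-ratios factors. In the 22 measured genes of complexes that exchange variants these numbers were 0 and 6 (Epc2, Kat5, Morf4l1, Srcap, Trrap and Vps72), and the median was −0.62. Neither share is above that of all genes. They were 0 and 7 of 22 in the 53 and 85 cells, with Actr6 added. Vps72, which hands H2A.Z to the exchange complexes, was at 70.1 and 22.7 CPM, 3.09-fold lower (2.63 to 3.64), Morf4l1 was 3.17-fold lower (2.86 to 3.52) and Epc2 2.85-fold lower (2.19 to 3.74). Yeats4 was 1.53-fold higher (1.33 to 1.76). These medians stand beside −0.57 over all measured genes.

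The S phase list, with all 39 genes measured, had 4 past 2-fold upwards (Fen1, Prim2, Rpa2 and Rrm2) and 2 downwards (Chek1 and Gins1), and a median of 0.10. Of these, 3 remained higher in the 53 and 85 cells, without Prim2, and both remained lower. Fen1, the flap endonuclease of lagging strand synthesis, was 6.23-fold higher (5.51 to 7.05), Rrm2, part of the enzyme that makes deoxynucleotides, 4.77-fold higher (4.62 to 4.94), and Chek1, a checkpoint kinase, 2.69-fold lower (2.396 to 3.03). The list of G2 and M phase, with all 34 genes measured, had 1 higher (Ccna2, the cyclin of S and G2 phase, 4.26-fold, 4.08 to 4.44) and 2 lower (Ttk, 2.51-fold, 2.21 to 2.86, and Kif20b, 2.46-fold, 2.24 to 2.71), and its median was −0.11. There, 2 were higher in the 53 and 85 cells, with Kif23 added, and 3 lower, with Cdc25c added. Erythroid differentiation genes, 27 of them measured, were higher in 24 cases and lower in 1 (Nfe2), and their median was 3.30. Between the 53 and 85 cells 22 of 27 were higher and 1 lower.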

How the data were processed

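Full-length cDNA libraries of single cells (SmartSeq2) were made in 96-well plates, 1 plate for BFU-E and 1 for CFU-E cells. The deposited table holds raw read counts per gene and cell. Per the submitters' processing notes the authors used STAR 2.4, featureCounts and the GRCm38 build. Not given in the sources used here were the annotation release and how strand and multi-mapping reads were treated. Columns were matched to 191 of 192 cells by name, and 1 other column was left aside. Each cell that reached 100000 counts and 2000 genes was thinned to 100000 counts (random seed 1), and counts were summed per group. A gene was measured at a mean of at least 5 CPM and called at a 2-fold difference, with log2 folds on CPM + 1. With 1 sample a group no test was made. Poisson, binomial and ratio intervals are exact at 95%. Zero is compared through a floor of 3 counts over the group.

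BFU-E cells were clustered (Ward, 10 principal components of 1000 variable genes) and CFU-E cells flagged by at least 3 lymphoid markers. Since sorting placed 1 cell in each well, doublets were not called. The members and the 6 gene lists and 8 marker lists (293 symbols, 1 not matched) were chosen with earlier results of these data known. Every measured member is named, with the list genes that passed 2-fold or had the largest differences, and, as most like a member, the 5 genes of highest Spearman rho with it. Exons, stem-loops and unique 50-base stretches came from GENCODE M21, and promoters from RefSeq, which held 60 of the 67 replication-dependent and 14 of the 17 variant genes. Python 3.11.15, numpy 2.4.6, pandas 2.3.3, scipy 1.17.1, scikit-learn 1.9.0, R 4.3.3 and edgeR 4.0.16 (for TMM factors) were used, and the steps were tested on simulated data.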

Additional observations from a re-analysis of the deposited data

How the results depend on the processing

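No paired analysis was possible because the shared numbers 1 to 96 are wells of different plates and no result comes from a test. No value past the 2-fold threshold changed sign, while 33 of 107 main values and 60 of 180 single-gene values and correlations moved. A fold moved when it left its counting interval, and a count of genes when it changed by over 1.5 times. Median log2 folds and correlations moved by a fixed step, and per-cell medians by the SD over cells. Leaving out the granulocyte-monocyte-like cells alone, the lymphoid-marker cells alone or the highest cell was chosen after seeing the data. The summed replication-dependent fold, 0.715, was 0.629 with thinning to 50000 counts, 1.06 with TMM and 1.11 with median-of-ratios factors, 0.887 without both sets of cells, 0.882 without the granulocyte-monocyte-like cells alone and 0.785 without the highest cell. The variant fold, 1.10, was 1.08, 1.64, 1.71 and 1.17 under the first 4 of these, 1.07 with at least 500000 counts and 4000 genes and 1.06 without thinning. With TMM or median-of-ratios factors 1 replication-dependent gene was lower, since Hist3h2a fell under the measured level and Hist1h2be under 2-fold. In each, 1 variant was higher, and with median-of-ratios factors 1 variant was lower. Those factors made the replication-dependent median log2 fold 0.39 and 0.44 and the variant median 0.32 and 0.37. The replication-dependent median was −0.58 with another seed, −0.72 without the 5% deepest wells and 1.16 at a minimum of 20 CPM, where 2 genes were measured and 0 lower. The variant median was −0.57 with thinning to 50000 counts. With no minimum, 54 replication-dependent genes were measured, 8 higher and 32 lower, and 14 variants, 1 higher and 5 lower, where 15.1% of all genes were higher and 47.9% lower. The causes were not tested.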
